A study of Mus musculus with 22 samples.

Results

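These results describe the PCGF6 ChIP-seq peaks of wild-type mouse intestinal crypts that stood alone at gene ends, that is, without PCGF6 in the knockout and without RING1B, H2AK119ub1, CTCF or RAD21 peaks. Of 17163 PCGF6 peaks in wild-type (WT) AhCre crypts, 2151 met this description, and 2497 of 21887 protein-coding genes had such a peak within 1 kb of either end. A peak was taken when it had no overlap of even 1 bp with the PCGF6 list of Pcgf6 knockout (KO) AhCre crypts, the RING1B lists of WT AhCre and WT Villin crypts, the CTCF and RAD21 lists of WT Villin crypts, or the H2AK119ub1 list of WT AhCre crypts. The peaks were thus chosen by the scores and positions in these 7 crypt lists, and the absence of the other signals at them is a description and not a finding. Peaks that met the rule are called PCGF6-only peaks below. The name rests on peaks past the deposited score limit of 10, and a protein without a peak may still be present below it.

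ChIP-seq was made on small intestinal crypts of C57BL/6 mice, the pits of the epithelium that house its stem cells, and on WT E14 embryonic stem cells (ESC), a mouse cell line. The groups were Pcgf6 KO and WT crypts of the AhCre line (PCGF6, RING1B and H2AK119ub1), Pcgf6 KO and WT crypts of the Villin line (RING1B, H2AK119ub1, CTCF and RAD21) and WT ESC (PCGF6 and RING1B). H2AK119ub1 chromatin was spiked with 5% Drosophila S2 chromatin. The AhCre line is induced with BNF, which switches on a Cre gene under an aryl hydrocarbon-responsive promoter, and the Villin line with Tamoxifen, with Cre under a promoter of the intestinal epithelium. For RNA collection, the design text gives male mice of 8 to 12 weeks and 7 days after induction, without saying if the same applies to these crypts. Cells that escape Cre can keep the gene. The KO PCGF6 list still held 4779 peaks, and why they remained was not tested. Whether WT crypts carried Cre or received the inducer was not stated. Of 22 samples, 16 had a peak list and 6 were inputs, and each group had 1 library, so no value below has a replicate error and no test between conditions was possible. The lists held between 1662 and 32651 peaks with scores that the authors gave as −log10 of p or q, and no read depth can be read from them. Intervals in brackets are exact Clopper-Pearson 95% intervals, which cover counting error only. Positions are 1-based on mm10.

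PCGF6 is the Polycomb RING finger protein that defines the variant complex PRC1.6. Within it, the RING1B ligase can place ubiquitin on histone H2A (H2AK119ub1), and the complex is brought to DNA by sequence-specific partners, chiefly the MGA and MAX pair at E-boxes and E2F6 with DP1 at E2F sites. In ESC, PRC1.6 is known for holding germline and meiosis genes silent at promoters rich in CpG. CTCF and the cohesin subunit RAD21 mark insulator and loop-anchor sites, and both often lie at promoters as well.

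The following promoter sequences, from RefSeq for GRCm38.p6 (mm10), show the DNA under 6 of the strongest PCGF6-only peaks, chosen as the 3 highest-scoring with an ESC PCGF6 peak and the 3 highest-scoring without, where the 250 bases before the gene start lay under the peak and outside every annotated gene. Each is printed in the direction of its gene and ends at the base before the start. Capitals mark exact matches to 6 short motifs searched on both strands, of which the E-box CACGTG and the ETS site CCGGAAG were found here. The first 3 had an ESC PCGF6 peak. Galnt6 (chr15:100729377-100729626, minus strand) encodes an enzyme that starts O-linked glycans, Rrn3 (chr16:13780449-13780698, plus strand) an initiation factor of RNA polymerase I, and Lrrc47 (chr4:154011553-154011802, plus strand) a leucine-rich repeat protein. The other 3 had none. Mrps9 (chr1:42850983-42851232, plus strand) encodes a protein of the mitochondrial ribosome, Faf1 (chr4:109676377-109676626, plus strand) a Fas-associated ubiquitin-binding protein, and Tollip (chr7:141902462-141902711, minus strand) an adaptor of Toll-like receptor signalling.
Galnt6: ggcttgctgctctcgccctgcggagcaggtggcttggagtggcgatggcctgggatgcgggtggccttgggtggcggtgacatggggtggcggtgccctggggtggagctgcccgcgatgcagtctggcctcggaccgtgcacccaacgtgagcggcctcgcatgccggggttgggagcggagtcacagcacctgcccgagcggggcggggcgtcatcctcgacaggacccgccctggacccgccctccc
Rrn3: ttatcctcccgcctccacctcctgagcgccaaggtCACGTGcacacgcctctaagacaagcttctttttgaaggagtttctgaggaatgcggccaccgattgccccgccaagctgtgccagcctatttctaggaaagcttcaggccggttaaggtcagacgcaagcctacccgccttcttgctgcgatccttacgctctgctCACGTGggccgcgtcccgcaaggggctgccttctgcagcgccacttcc
Lrrc47: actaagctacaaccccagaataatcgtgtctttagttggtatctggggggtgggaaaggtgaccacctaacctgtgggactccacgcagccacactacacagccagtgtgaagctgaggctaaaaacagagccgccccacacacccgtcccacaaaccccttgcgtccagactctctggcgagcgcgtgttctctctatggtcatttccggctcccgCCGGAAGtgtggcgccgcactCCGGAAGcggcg
Mrps9: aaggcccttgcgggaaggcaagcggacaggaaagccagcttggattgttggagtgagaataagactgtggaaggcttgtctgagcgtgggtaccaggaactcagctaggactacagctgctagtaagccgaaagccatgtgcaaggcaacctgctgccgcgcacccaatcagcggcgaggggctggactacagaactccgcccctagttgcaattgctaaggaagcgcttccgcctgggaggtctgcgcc
Faf1: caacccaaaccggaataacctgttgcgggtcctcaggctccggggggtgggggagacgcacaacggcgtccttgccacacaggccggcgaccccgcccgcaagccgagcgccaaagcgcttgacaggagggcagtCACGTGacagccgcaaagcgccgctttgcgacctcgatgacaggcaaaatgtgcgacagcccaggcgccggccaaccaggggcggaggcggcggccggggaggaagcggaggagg
Tollip: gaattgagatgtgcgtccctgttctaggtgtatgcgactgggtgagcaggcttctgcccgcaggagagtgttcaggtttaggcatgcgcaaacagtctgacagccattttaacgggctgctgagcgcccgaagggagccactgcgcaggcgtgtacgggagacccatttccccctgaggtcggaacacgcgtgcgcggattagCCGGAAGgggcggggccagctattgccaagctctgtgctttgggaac
The Rrn3 stretch held an E-box at bases 215 to 210 and another at bases 48 to 43 before the start, and the Faf1 stretch held one at bases 115 to 110. Lrrc47 had ETS sites at bases 33 to 27 and 12 to 6 before its start, and Tollip had one at bases 47 to 41. No motif was found in the Galnt6 and Mrps9 stretches, which held 22 and 12 CpG.

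The strongest PCGF6-only peak lay at the start of Nmi, which encodes an interferon-inducible partner of MYC and STAT proteins (chr2:51972536-51973853), with a crypt score of 260.0 and an ESC PCGF6 score of 17.3. Only 1 other peak of the set passed a score of 100, that of Afap1l1, an actin filament-associated protein (105), which had no ESC counterpart. Top2a, the topoisomerase of dividing cells, followed with a crypt score of 82.0 and no ESC peak (chr11:99023568-99025319). The membrane-traffic adaptor gene Tom1l1 had nearly the same PCGF6 score in both cell types, 79.3 in crypts and 76.1 in ESC, and an ESC RING1B peak of score 14.9. These were unusual in strength: only 15 of the 2151 peaks had a score of 50 or more.

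Other strong peaks were found again in ESC with lower scores. Mlycd, which encodes malonyl-CoA decarboxylase, had a PCGF6 score of 73.9 in crypts and 29.5 in ESC, and Galnt6 had 64.6 and 13.8. Galnt6 and Mlycd also carried RING1B in ESC, with scores of 56.2 and 10.7. The peak at the start of Ccdc134, which also reached the far end of Mei1, a gene of meiotic recombination, scored 55.6 in crypts and 14.1 in ESC, with ESC RING1B at 13.1. The mitochondrial F-box gene Fbxl4 had 54.9 and 39.0, the chaperone gene Dnajc2 shared a peak with the proteasome ATPase gene Psmc2 at 53.3 and 21.4, and Rrn3 had 52.8 and 38.3. Bin3, of the BAR domain family (56.6 and 11.7), and the tyrosine phosphatase gene Ptpn18 (51.5 and 23.0, with ESC RING1B at 32.6) completed the 10 strongest with ESC PCGF6. Scores of separate libraries are not on 1 scale, so a lower ESC score is a value of that list and not a tested difference.

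The 10 strongest peaks without ESC PCGF6 continued after Afap1l1 and Top2a with Vac14, a scaffold of endosomal lipid kinases (crypt score 62.5), Mrps9 (53.1), and the shared peak of Lrriq3 and Fpgt, an enzyme of fucose salvage (52.0). Faf1 had 49.6. Jarid2, the DNA-binding partner of PRC2, had 46.0 in a peak 148 bp from the gene start. Ccdc61, Tollip and Armh3 shared the score of 41.3. None of these 10 had an ESC RING1B peak. At the other extreme stood Entpd8 and Mansc1, with a score of 10.0 each, just above the limit of the deposited list.

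**Figure D1:**
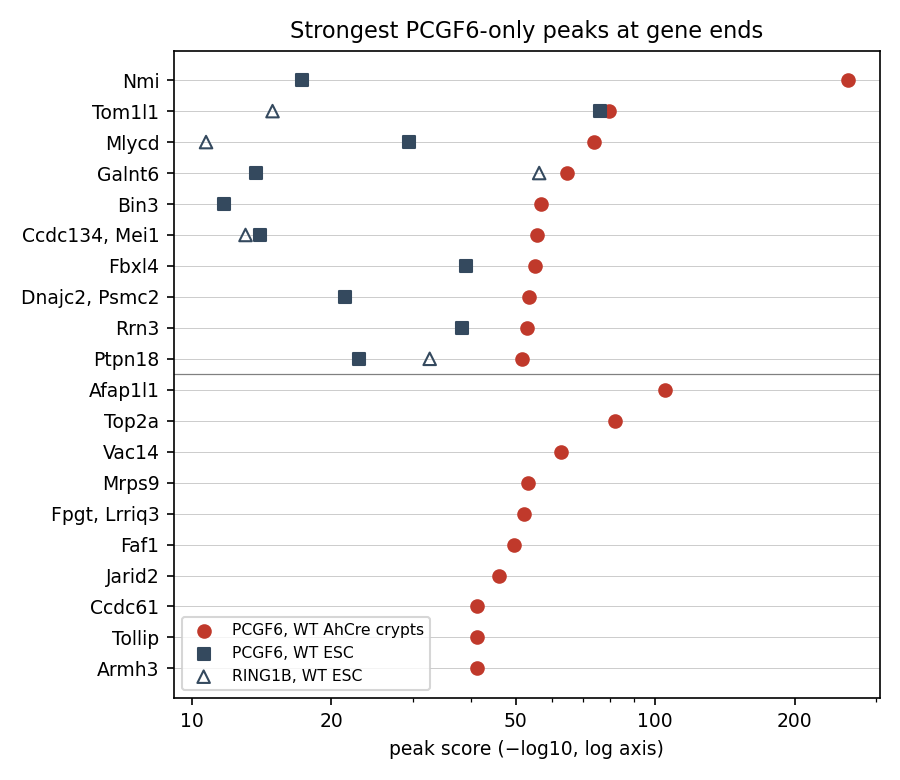
Scores (−log10, log axis) of the 10 strongest PCGF6-only peaks with and, below the line, the 10 without an ESC PCGF6 peak. Circles are PCGF6 in WT AhCre crypts, squares PCGF6 and open triangles RING1B in WT ESC, and no symbol means no overlapping peak. Nmi has 260.0 in crypts and 17.3 in ESC, while Tom1l1 has 79.3 and 76.1.

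As a set the peaks had lower scores and smaller widths than other PCGF6 peaks at gene ends, as a description with no test. Their median score was 15.4 (quartiles 12.4 and 20.4), against 23.8 (15.7 and 40.1) for the 5724 other PCGF6 peaks at gene ends and 14.3 (11.8 and 19.2) for the 4205 PCGF6-only peaks away from gene ends. Scores of 20 or more were held by 25.5% of PCGF6-only gene-end peaks, 60.2% of other gene-end peaks and 22.4% of those away from gene ends. Median widths in the same order were 901, 1240 and 804 bp. The other gene-end peaks with a KO PCGF6 peak had a median score of 39.5 and a median width of 1490 bp. The 3132 without one had 17.1 and 1049 bp, closer to the PCGF6-only gene-end peaks. Scores came in steps, and 83.4% of the peaks shared their score with another of the set, with 589 distinct values in all. Of the 7875 PCGF6 peaks at gene ends, 2592 overlapped a KO PCGF6 peak, 3013 RAD21, 2797 CTCF, 1970 Villin RING1B, 893 AhCre RING1B and 1029 AhCre H2AK119ub1, which left the 2151. A peak of those 6 lists still lay within 1 kb of 270 of them (12.6%).

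**Figure D2:**
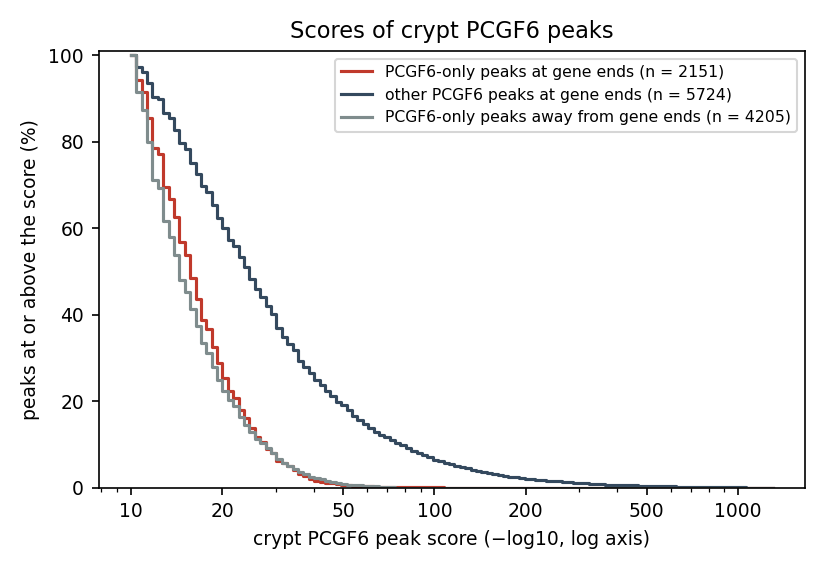
Share of crypt PCGF6 peaks (percent) at or above each score (−log10, log axis) for PCGF6-only peaks at gene ends, other PCGF6 peaks at gene ends and PCGF6-only peaks away from gene ends. The medians are 15.4, 23.8 and 14.3, and the curves of both PCGF6-only sets lie close together.

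Most of the peaks sat on gene starts. Strand was known for 2038 of the 2497 genes (81.6%) from RefSeq promoter entries. Promoters on chromosome 18 were not used here, so its 46 PCGF6-only peaks are among the unplaced ones and its genes are in none of the promoter counts. By this, 1690 of 2151 peaks (78.6%, interval 76.8 to 80.3) lay within 1 kb of the start of at least 1 gene, 88 (4.09%, 3.29 to 5.02) lay only at far ends, and 373 could not be placed. The other gene-end PCGF6 peaks divided almost the same way, with 76.9% at starts and 4.21% only at far ends. At starts, the peak covered the first base of the gene in 1221 cases (72.2%), and the midpoint lay a median of 90.5 bp inside the gene (quartiles −139 and 315 bp). At far ends the midpoints were spread on both sides (quartiles −779 and 831 bp), and only 21 of 88 peaks covered the end. The strongest of the 88 peaks only at far ends were at the keratin gene Krt10 (37.8), the phosphatase gene Ppm1b (35.5), the carbonic anhydrase gene Car6 (31.4), the carotenoid oxygenase gene Bco2 (25.8) and the sugar phosphate mutase gene Pgm2 (25.4), and none of these had an ESC PCGF6 peak.

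**Figure D3:**
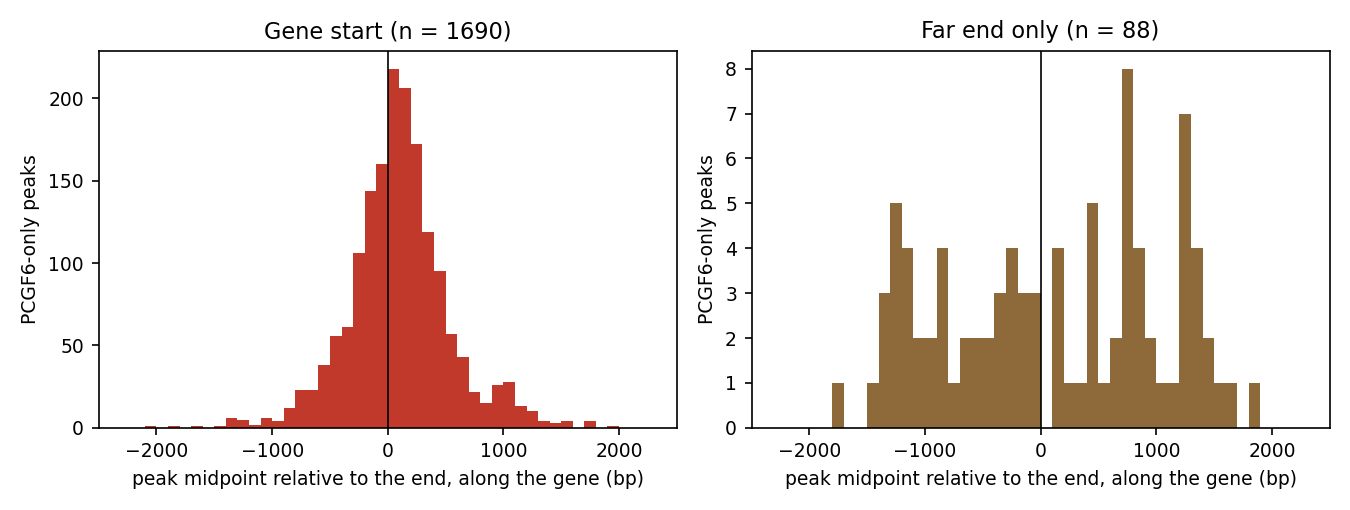
Number of PCGF6-only peaks by the distance in bp of the peak midpoint from the gene end, counted along the gene (positive is downstream), in bins of 100 bp. Left, 1690 peaks at gene starts, which pile up just inside the gene. Right, 88 peaks only at far ends, which form no single pile.

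Where several genes lay close together, 1 peak could reach them all. A total of 397 peaks had 2 genes in reach, 11 had 3 and 1 had 5 (Frs3, Prickle4, Tomm6, Usp49 and Gm20517, score 14.3). Of the 1690 peaks at starts, 208 (12.3%) lay at starts on both strands. The strongest of these joined Rad51c, a recombination repair gene, to Tex14, which is needed for the bridges between male germ cells (47.5 in crypts, 45.7 in ESC). Others joined the RNA exosome gene Exosc7 to Zdhhc3 (34.8), the peroxiredoxin gene Prdx2 to the RNase H2 gene Rnaseh2a (33.3) and the spliceosome gene Snrpd3 to Gucd1 (33.2). An ESC PCGF6 peak was present at 22.6% of the 208 (17.1 to 28.9) and at 23.2% of the 1482 on 1 strand (21.1 to 25.4). In the other direction, 77 genes had 2 PCGF6-only peaks. Ptpn18 had them at its start (51.5) and its far end (15.2), and both overlapped ESC PCGF6. The Mediator gene Med26 (37.1 at the far end, 15.2 at the start) and the poly(A) ribonuclease gene Parn (21.8 and 29.0) had them at both ends without ESC PCGF6, and Jarid2 had both near its start (12.4, shared with ESC, and 46.0). Of the 2497 genes, 258 also had a PCGF6 peak of another kind at an end.

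PCGF6 was shared with ESC at 461 of the 2151 PCGF6-only gene-end peaks (21.4%, interval 19.7 to 23.2). Over all 17163 crypt PCGF6 peaks the share was 24.1%, so the set lay close to this background and slightly below it. This direction turned with the rule: when a peak was excluded only if 50% of it was covered, the share was 28.2%, above the background. It lay between its nearest relatives, with 44.2% (42.9 to 45.5) at other gene-end peaks and 3.83% (3.27 to 4.45) at PCGF6-only peaks away from gene ends. Among the other gene-end peaks the share was 56.9% (54.9 to 58.8) with a KO PCGF6 peak and 33.7% (32.1 to 35.4) without one. The order of the sets was the same within bands of score. From the lowest to the highest of 5 score bands the share was 12.9%, 15.9%, 22.7%, 29.2% and 42.1% for PCGF6-only gene-end peaks, against 20.1%, 26.5%, 28.8%, 39.7% and 65.9% for other gene-end peaks and 2.37%, 2.72%, 3.94%, 6.02% and 8.78% away from gene ends. Over all crypt PCGF6 peaks it was 8.58%, 11.9%, 17.2%, 25.4% and 49.3%. Within bands the PCGF6-only gene-end peaks thus lay above this background below a score of 30, and under it only at 30 or more. The intervals of PCGF6-only and other gene-end peaks did not overlap in the bands from 10 to 12, 12 to 15, 20 to 30 and 30 or more, and overlapped in the band from 15 to 20 (19.5 to 26.3 and 26.1 to 31.6). No test was made of these shares. At starts 23.1% of the peaks were shared with ESC (21.1 to 25.2), and at far ends 4 of 88 (4.55%, 1.25 to 11.2), namely Arhgef19, Tex2, Ptpn18 and Spem2.

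**Figure D4:**
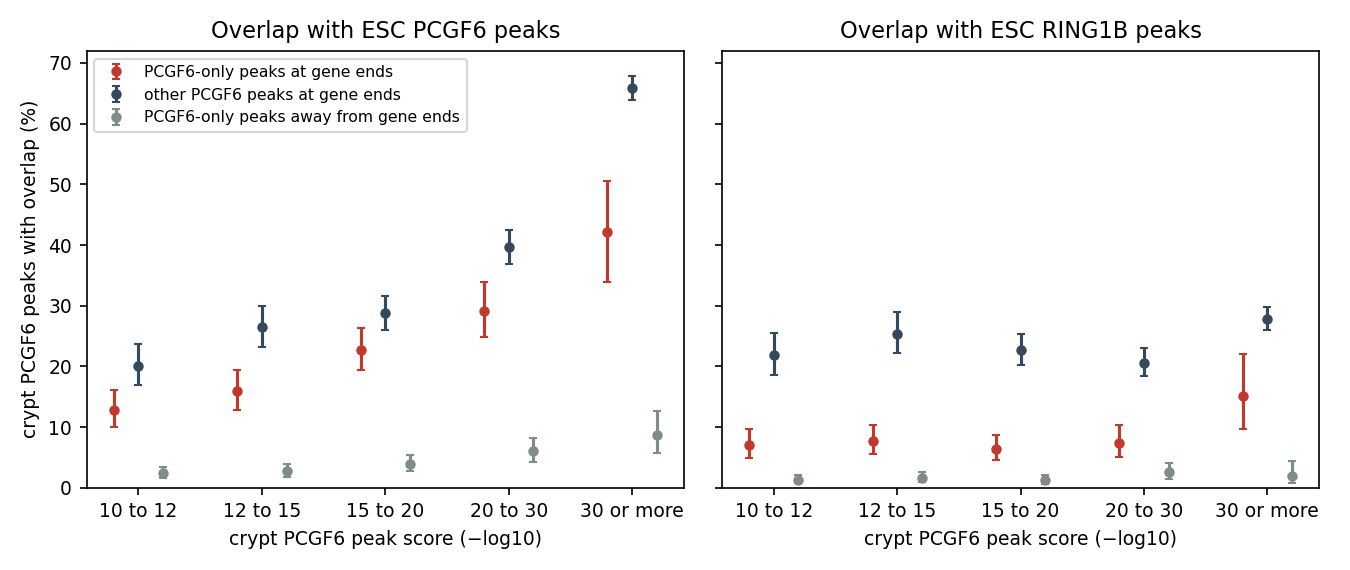
Percent of crypt PCGF6 peaks that overlap an ESC PCGF6 (left) or ESC RING1B peak (right), by crypt score band (−log10), with exact 95% intervals, for PCGF6-only peaks at gene ends, other PCGF6 peaks at gene ends and PCGF6-only peaks away from gene ends. PCGF6-only gene-end peaks lie between the other sets in each band, and their ESC PCGF6 share is 12.9% in the lowest band and 42.1% in the highest.

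Peaks shared with ESC had a median crypt score of 17.9, against 14.9 for those not shared, but among the 461 shared peaks a high score in crypts did not go with a high score in ESC. Spearman's rho between the scores was 0.057 over these 461 peaks and 0.40 over the 2530 other gene-end peaks shared with ESC, as a description across peaks of a single pair of libraries. Crypt scores had quartiles of 12.4 and 20.4 over all PCGF6-only gene-end peaks and 15.7 and 40.1 over all other gene-end peaks. The part of this narrower range in the lower rho was not tested. The highest ESC scores belonged to peaks of low or middling crypt score. Iho1, which encodes a protein of meiotic DNA break formation, had 162 in ESC and 13.4 in crypts. Recql, a DNA helicase gene, shared a peak with Golt1b at 143 in ESC and 29.1 in crypts. Prr19, a gene of meiotic crossing over, had 125 and 26.9, and Dnajb3 had 117 and 13.6. These 4 were picked after their ESC values were seen, and all but Recql also had an ESC RING1B peak.

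RING1B, absent from the WT crypt lists by the rule, was present in ESC at 164 of the peaks (7.62%, interval 6.54 to 8.83), against 12.6% over all crypt PCGF6 peaks, 24.5% (23.3 to 25.6) at other gene-end peaks and 1.64% (1.28 to 2.07) away from gene ends. Below a score of 30 this share stood between 6.38% and 7.66%, and above it at 15.2% (9.76 to 22.1). RING1B in ESC lay at 104 of the 461 peaks with ESC PCGF6 (22.6%, 18.8 to 26.7) and at 60 of the 1690 without (3.55%, 2.72 to 4.55). Over all crypt PCGF6 peaks these shares were 38.4% and 4.34%. Thus 357 peaks (16.6%) had PCGF6 without RING1B in ESC too, and 1630 (75.8%) had neither. Both were near the shares over all crypt PCGF6 peaks, 14.9% and 72.6%. The strongest ESC RING1B peaks at these sites were those of Pank4, of the pantothenate kinase family (201), the adenylate cyclase gene Adcy8 (200.1), 2810459M11Rik (199), the endoderm pioneer factor gene Foxa1 with Ttc6 (153) and the translation factor gene Ctif (147). Their crypt PCGF6 scores were 29.0, 10.2, 25.8, 10.7 and 12.6. By gene, 626 of the 2497 had an ESC PCGF6 peak at an end (25.1%, 23.4 to 26.8), against 22.7% of all protein-coding genes, 45.4% of genes with other crypt PCGF6 peaks and 11.5% of genes with none. For ESC RING1B these shares were 9.65% (8.52 to 10.9) for the 2497 genes, 17.8% for all genes, 24.99% for genes with other crypt PCGF6 peaks and 16.0% for genes with none.

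The 7 crypt lists that the rule did not use had few peaks at these sites. For all but the Villin H2AK119ub1 libraries, the rule used the WT list of the same protein and line. For the Villin H2AK119ub1 libraries it used the WT AhCre list of the same mark. The low shares below thus follow in part from the rule and are a description. H2AK119ub1 of Villin WT crypts overlapped 10 of 2151 (0.465%, interval 0.223 to 0.853), against 8.2% of all crypt PCGF6 peaks, 12.3% of other gene-end peaks and 0.595% of PCGF6-only peaks elsewhere. The strongest PCGF6 peaks among the 10 were Tom1l1 (H2AK119ub1 score 10.1), the deacetylase gene Sirt1 (10.6), Csrnp2 (10.5), Fam124a (14.6) and the thymidine phosphorylase gene Tymp with Odf3b (10.3). Over all 10 the score ran from 10.1 to 15.7, at Fmnl2. In Villin KO crypts the mark overlapped 9 peaks (0.418%) against 6.07% of all crypt PCGF6 peaks, and the only peak in both Villin lists was that of the ubiquilin gene Ubqln2 (14.7 in KO, 10.5 in WT). In AhCre KO crypts it overlapped 49 (2.28%) against 13.4%, among them the X-linked proteoglycan gene Gpc3 (19.6) and Gpm6b (17.9).

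RING1B of KO crypts overlapped 7 peaks in the AhCre line (0.325%, against 4.24% of all crypt PCGF6 peaks) and 28 in the Villin line (1.30%, against 7.14%). Ptpn18 was in both, with RING1B scores of 11.8 and 11.1. Zbtb37, Sde2 and Aacs were others in the AhCre line (11.6 to 12.2), and Csrnp2 (15.2), Ankrd26 and Dgke in the Villin line. KO CTCF overlapped 40 peaks (1.86%, against 29.2%) and KO RAD21 overlapped 41 (1.91%, against 23.3%), with median scores of 12.4 and 11.2. The strongest PCGF6 peaks with KO CTCF included Ewsr1 (CTCF score 10.6), Arhgef11 (12.6) and Hspa13 (11.6), and with KO RAD21 Ptp4a2 (11.0), Zc3hav1 (10.5) and Ltv1 (17.6). These peaks had no WT counterpart by construction, so they say nothing of a gain in KO.

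The genes included members of chosen housekeeping lists, from replication and splicing to respiration. Over all 21887 protein-coding genes, 11.4% had a PCGF6-only peak and 39.9% had any PCGF6 peak at an end. These shares are what the counts for the gene lists below stand beside, and no list was tested. Beside the counts of list peaks shared with ESC stands the 21.4% over all PCGF6-only gene-end peaks. Of the 8740 genes with any PCGF6 peak, 2497 had a PCGF6-only peak. Any PCGF6 peak lay at 82.5% of replication, 81.5% of splicing factor, 76.6% of respiratory chain and 75.5% of proteasome genes. Of those with any peak, 46.8%, 34.8%, 35.4% and 35.1% had a PCGF6-only peak. For DNA repair and cytosolic ribosomal protein genes these were 28.3% and 19.2%. How far PCGF6 occupancy accounts for the list shares was not tested. Of 57 DNA replication and E2F target genes, 22 had a PCGF6-only peak (38.6%, interval 26.0 to 52.4), and 47 had any. After Top2a came the replisome gene Gins3 (40.1), the origin recognition gene Orc6 (24.8), the checkpoint kinase gene Chek1 (24.4) and the helicase gene Mcm7 (24.1), with 8 of the 22 peaks shared with ESC. DNA repair genes had one in 15 of 71 cases, led by Rad51c (47.5), Recql (29.1), the translesion polymerase gene Rev1 (25.8) and the ATR partner gene Atrip (22.4), and 7 of these 15 peaks were shared with ESC. Of 16 CTCF and cohesin genes, 6 had one, namely Wapl (23.8), Smc1a (18.9), Rad21 (17.9), Esco2 (12.4), Pds5a (11.8) and Ctcf itself (11.7), and none of these peaks overlapped ESC PCGF6.

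Among genes of gene expression, splicing factor genes had a PCGF6-only peak in 23 of 81 cases (28.4%, 18.9 to 39.5), led by Prpf39 (42.4), Snrpb (33.3), Snrpd3 (33.2) and Sf3b1 (29.0). C2H2 zinc finger genes had one in 103 of 467 (22.1%, 18.4 to 26.1), such as Zfp362 (40.4), Zfp873 (39.5), Zfp939 (37.9) and Zfp518b (34.4), and 14 of the 104 peaks were shared with ESC. Translation factor genes had 13 of 60, with the initiation factor gene Eif3e at 37.8. RNA polymerase and Mediator genes had 11 of 58, led by Polr1b (38.2) and Med26 (37.1), both at their far ends. Neither peak was counted among those only at far ends, and that of Med26 also lay at the start of Slc35e1. RNA helicase genes had 9 of 53. Of 87 cytosolic ribosomal protein genes, 78 had some PCGF6 peak but only 15 a PCGF6-only peak (17.2%, 9.98 to 26.8). These were weak, from Rps24 (19.8) and Rps25 (17.7) downward, with a median of 12.6, and none overlapped ESC PCGF6. Among all PCGF6-only gene-end peaks, 12.9% did at scores of 10 to 12 and 15.9% at 12 to 15. Aminoacyl-tRNA synthetase genes had 4 of 37.

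Among genes of mitochondria and protein turnover, respiratory chain genes had a PCGF6-only peak in 29 of 107 cases (27.1%, 18.96 to 36.6), led by Cox5b (40.1, with both ESC proteins), Ndufs1 (23.8) and Ndufa8 (22.4). Mitochondrial ribosomal protein genes had 18 of 78, with Mrps9 far ahead of Mrpl52 (24.8). Proteasome subunit genes had 13 of 49 (26.5%, 14.9 to 41.1), led by Psmc2 (53.3), Psmb3 (26.0) and Psmc3 (23.8). F-box and cullin genes had 15 of 89, with Fbxl4 (54.9) and Cul1 (34.4), and deubiquitinase genes 11 of 71, with Usp5 at 28.7. Other lists were Rab GTPase genes (11 of 59), centrosome and cilium genes (17 of 104), kinesin genes (7 of 38), clustered histone genes (11 of 67, on 8 peaks) and solute carrier genes (40 of 387).

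Genes of the Polycomb complexes also had PCGF6-only peaks. Of 41 PRC1 and PRC1.6 genes, 31 had some PCGF6 peak and 8 a PCGF6-only peak. These were Phc2 (38.9, with ESC PCGF6 and RING1B), Pcgf2 (26.0, on the same peak as Psmb3), Fbrs (21.9), the HP1 gene Cbx3 (19.04), Yaf2 (16.1, with both ESC proteins), Fbrsl1 (11.9), Phc1 (11.8) and Rnf2, which encodes RING1B (10.7). Of 13 PRC2 genes the set held Jarid2, Mtf2 (14.3) and Rbbp7 (10.9). Germline and meiosis genes, the best known PRC1.6 targets, had a PCGF6-only peak in 6 of 64 cases (9.38%, 3.52 to 19.3): Mei1 (55.6), Tex14 (47.5), Tdrd7 (14.8), Hormad1 (12.3), Rec8 (11.5) and Terb2 (10.1), of which Mei1, Tex14 and Rec8 were shared with ESC. At Mei1 and Hormad1 the peak lay at the far end of the gene.

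Counts among developmental and cell type marker genes differed from list to list. No Hox gene (0 of 39), clustered protocadherin (0 of 57) or olfactory receptor (0 of 1107) had a PCGF6-only peak. Of 115 other developmental transcription factors only Pax8 (15.2, at its far end) and Foxa1 (10.7) did. Few genes of these lists had any PCGF6 peak: 5 Hox genes, 1 protocadherin, 1 olfactory receptor and 17 of the 115 factors. Of 21 intestinal stem cell markers, 14 had some PCGF6 peak and none a PCGF6-only peak (0%, 0 to 16.1). Enterocyte markers had 5 of 29, the peptidase genes Dpp4 (18.9) and Enpep (12.6), the regulators Hnf4g (13.98) and Hnf4a (12.4), and Apoa1 (10.9). The tuft cell list held the transcription factor gene Spib (32.2, at its far end) and the IL-25 receptor gene Il17rb (19.7) among 26. The goblet cell list held Muc13 (16.1), Agr2 (12.6, at its far end) and Fcgbp (11.6) among 15, of which 5 had some PCGF6 peak. Enteroendocrine markers had 1 of 25 (Gip, 19.96, at its far end) and Paneth markers 0 of 12, while 5 and 1 had any PCGF6 peak. Of the cell types a crypt preparation could also hold, immune markers had 1 of 20 (Itgax, 16.1, at its far end) and mesenchymal and endothelial markers 1 of 19 (Lyve1, 13.4).

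The promoters under PCGF6-only peaks were CpG-rich. Of 17492 RefSeq promoters of protein-coding genes, 300 bases each, 1556 lay under such a peak. They held a median of 20 CpG (quartiles 14 and 28), against 23 (17 and 30) under other gene-end PCGF6 peaks, 6 (2 and 18) under none and 13 (4 and 24) over all promoters. An observed to expected CpG ratio of 0.6 or more was found in 79.6% of them, in 83.6% under other PCGF6 peaks and in 48.4% of all promoters. Promoters of PCGF6-only peaks with ESC PCGF6 had a median of 24 CpG, and those without had 20.

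The E-box, the site of MGA and MAX, was in 188 of the 1556 promoters (12.1%, interval 10.5 to 13.8), against 597 of 4264 (12.97 to 15.1) under other PCGF6 peaks and 7.91% of all promoters. It was in 67 of 359 promoters with ESC PCGF6 (18.7%, 14.8 to 23.1) and in 121 of 1197 without (10.1%, 8.46 to 12.0), and these intervals did not overlap. No test was made, and the intervals treat promoters as independent, though neighbouring genes can share a peak. The E2F site GGCGGGAA was in 5.46% (4.39 to 6.71), 5.44% under other PCGF6 peaks and 2.94% of all promoters, with 4.46% (2.57 to 7.14) where ESC PCGF6 was present and 5.76% (4.51 to 7.24) where it was not. The ETS site was in 24.7% (22.6 to 27.0), against 20.3% (19.13 to 21.6) under other PCGF6 peaks and 11.9% of all. The CRE TGACGTCA was in 3.73%, against 3.56% under other PCGF6 peaks and 2.33% of all promoters. In the same order, the NRF1 site, GCGCA followed by TGCGC, was in 3.47%, 2.65% and 1.33%, and the T-box site AGGTGTGA in 0.771%, 1.13% and 1.17%. CpG content also differed between these sets of promoters, and its part in these shares was not tested.

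**Figure D5:**
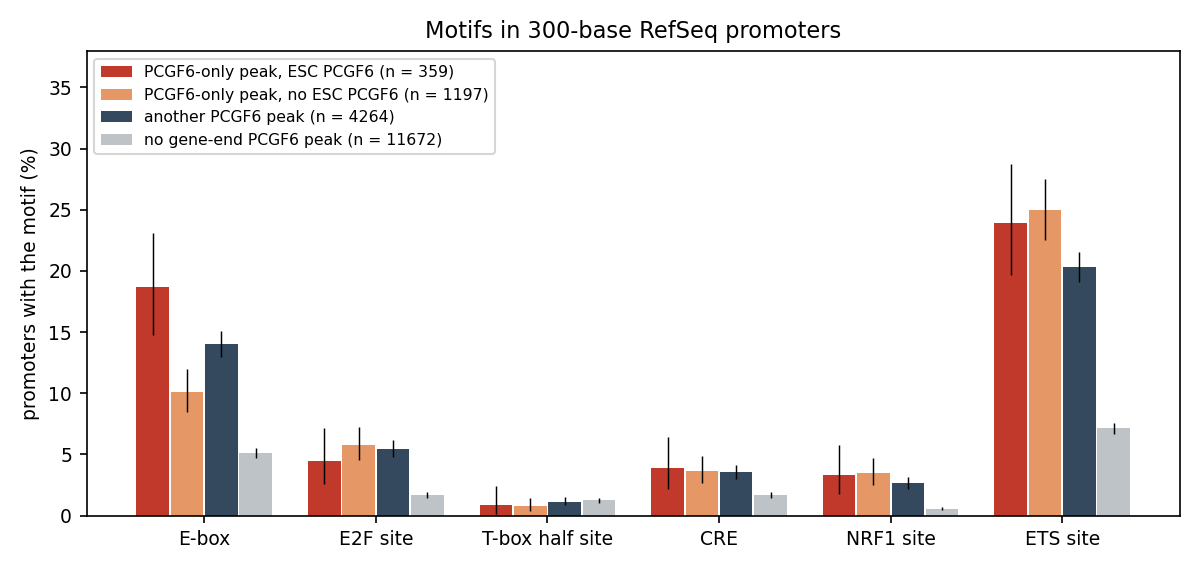
Percent of 300-base RefSeq promoters that hold each motif on either strand, with exact 95% intervals, for promoters under a PCGF6-only gene-end peak with and without ESC PCGF6, under another gene-end PCGF6 peak, and under no gene-end PCGF6 peak. The E-box is in 18.7% of those with ESC PCGF6 and 10.1% of those without, while the ETS site, at 24.7% over both, has overlapping intervals.

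The distance limit separated the following peaks. Just inside 1 kb lay Ttll8 (992 bp from the gene end, score 10.1) and Snx20 (996 bp, 11.7), and just outside lay Myoz2 (1005 bp, 11.6) and Tcf23 (1007 bp, 28.6).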

How the data were processed

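Peak lists of 16 ChIP-seq libraries were used, 1 per group. Each score is a −log10 p-value or q-value that the authors computed per peak (which of them was not stated), and the deposited lists hold scores of 10 or more. The labels name input chromatin as the reference for peak calling, and the 6 inputs were not used here. Builds mm10, dm6 and hg38, the aligner Bowtie (1.1.2, 1.2.2) and MACS2 2.1.1 appear without roles, per the submitters' processing notes. For both ESC libraries 1 description line exchanges PCGF6 and RING1B, and titles and antibody tags were followed.

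Starts were made 1-based, chromosomes 1 to 19, X and Y kept, and peaks matched at 1 bp of overlap. Genes, strands and promoters (1 per gene) were RefSeq's for GRCm38.p6 (mm10). The peaks, 35 gene lists and 6 motifs were chosen with earlier results of these data known, and the Rab and translation factor patterns were corrected after their members were seen. Named by rule were the 10 highest-scoring peaks with and without ESC PCGF6, the 5 highest with ESC RING1B or Villin WT H2AK119ub1, genes with 2 peaks, 4 genes per list and the peaks at the limits. All others named were chosen after their values were seen. Overlap counts were checked against bedtools 2.31.1 (0 of 8 lists differed), and 200 of 200 planted peaks were found. Tools were scipy 1.17.1, pandas 2.3.3, numpy 2.4.6 and matplotlib 3.10.9 on Python 3.11.15. The alternatives varied windows, overlaps, score limits, excluding lists and gene models. No read depth is known.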

Additional observations from a re-analysis of the deposited data

How the results depend on the processing

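No paired analysis was possible because every group had 1 library and no result came from a test. For the same reason no replicate could be left out. Of 55 alternative values, 33 stayed within the counting interval of the reported share or median, or within 1.5 times the reported count. Windows of 500 bp and 2 kb, exclusion by all 13 other crypt lists, and exclusion of peaks within 1 kb of the 6 lists moved none of the values computed under them. Excluding a peak only when 50% of it was covered gave 3461 peaks at 4025 genes with a median score of 17.8, and shares of 28.2% for ESC PCGF6, 11.0% for ESC RING1B and 2.25% for Villin WT H2AK119ub1. A score of 15 or more left 1160 peaks at 1390 genes with a median of 19.8 and 27.4% with ESC PCGF6. A score of 20 or more left 549 peaks at 659 genes with a median of 24.8, 32.6% with ESC PCGF6 and 9.47% with ESC RING1B. With all annotated genes, 18.8% had ESC PCGF6. Counting presence only when 50% of the crypt peak was covered gave 15.2% for ESC PCGF6, 5.90% for ESC RING1B and 0.186% for Villin H2AK119ub1, and counting any peak within 1 kb gave 1.02% for the last. With ESC peaks of score 20 or more, 7.81% were shared. With starts within 500 bp, 73.6% lay at a start. The sets compared differ in score and number by construction, and unknown depth limits what the lack of a peak can show.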

Other observations

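On chromosome X a larger share of gene-end PCGF6 peaks was PCGF6-only. Of 83 PCGF6 peaks at gene ends on X, 45 were PCGF6-only (54.2%, interval 42.9 to 65.2), against 2106 of 7792 on autosomes (27.0%, 26.0 to 28.0), where single autosomes ran from 24.5% to 30.9%. By gene the order was the opposite: 53 of 966 protein-coding genes on X had a PCGF6-only peak (5.49%), against 9.39% to 14.1% on single autosomes. These shares were noticed in the data and not tested. Gene-end peaks on X were also weaker, with a median score of 14.3 against 20.6. At scores of 20 or more the share was 26.9% on X (7 of 26, 11.6 to 47.8) and 13.7% on autosomes (12.6 to 14.8), and below 20 it was 66.7% (52.9 to 78.6) and 40.9% (39.3 to 42.5). KO PCGF6 peaks matched 22.9% of gene-end peaks on X and 33.0% on autosomes, and at least 1 of the 5 other lists matched 36.1% and 64.0%. The strongest X-linked members were Gpc3, a glypican that restrains growth (41.3 in crypts, 41.2 in ESC), the neuronal membrane gene Gpm6b (35.5, no ESC PCGF6), the chromatin gene Phf6 (34.4 in crypts, 29.1 in ESC) and the mRNA export gene Nxt2 (29.0, no ESC PCGF6). Of the 45 peaks on X, 7 were shared with ESC.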
